A study of Mus musculus with 9 samples.

Results

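The Zic genes of the mouse described here are Zic1, Zic2, Zic4 and Zic5, 4 of the 23453 gene symbols of a bulk RNA-seq count table, chosen by symbol and read in all 9 libraries. The libraries came from cells in 3 states, with 3 libraries per state. EpiLCs, epiblast-like cells that model the epiblast just after implantation, were made from naive ESCs over 48 h in N2B27 medium with 1% KSR (a serum replacement), FGF2 and ActivinA. aEpiLCs, a model of anterior epiblast, were EpiLCs kept for a further 24 h in the basal medium without Activin. pEpiLCs, a model of posterior epiblast, were EpiLCs kept for 24 h with Activin and CHIR99021, an agonist of Wnt/β-catenin signalling. The study's methods list FGF2 for the EpiLC medium but not for the aEpiLC or pEpiLC medium. The labels give no cell line, so whether the 3 libraries of a state came from separate lines or cultures is not stated, and the p-values measure only the spread between these libraries. The labels name the tissue as embryo, whereas the study's methods describe cultured cells. EpiLCs were sampled 24 h before the other states, so time in culture and medium cannot be told apart in a comparison with them.

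Zic proteins are zinc finger transcription factors whose DNA-binding domain resembles that of the GLI proteins, the effectors of Hedgehog signalling. In the embryo, Zic2 is transcribed from the epiblast onwards and is needed for neural tube closure and forebrain patterning, and Zic5 acts in the neural tube and neural crest. Zic1 and Zic4 are best known from the dorsal neural tube and the cerebellum.

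Total counts lay between 20560564 and 23417917 per library, and the detection limit of 3 counts was worth 0.130 to 0.143 CPM (library-scaled counts, normalized by TMM). The summed level of 5 primed epiblast markers was 3790 to 4358 CPM in EpiLC and aEpiLC and 1775 to 2959 CPM in pEpiLC. That of 9 primitive streak and mesoderm markers was 7.65 to 14.2 CPM outside pEpiLC and 2828, 668 and 665 CPM in pEpiLC replicates 1, 2 and 3. That of 8 neural markers was 183 to 230 CPM in EpiLC, 485 to 551 CPM in aEpiLC and 176 to 250 CPM in pEpiLC. The library labelled pEpiLC replicate 1 stood apart, with 107 and 108 genes differing over 4-fold (on CPM + 1) from replicates 2 and 3, against 7 between those, and values without it are given beside the results on the Zic genes that it moved.

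The members lie in pairs on opposite strands. On GRCm38, Zic5 (ENSMUSG00000041703.7) spans chr14:122456795-122465677 on the minus strand and Zic2 (ENSMUSG00000061524.8) spans chr14:122475435-122479852 on the plus strand, head to head, with 9757 bp between them. Zic1 (ENSMUSG00000032368.14) spans chr9:91358058-91365810 on the minus strand, and Zic4 (ENSMUSG00000036972.14) spans chr9:91362413-91389348 on the plus strand. The annotated spans of Zic1 and Zic4 overlap by 3398 bp and their exons by 60 bp. Whether the counting used strand is not stated in the sources used here, so reads in that overlap could not be assigned with certainty.

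RefSeq start sites on GRCm38.p6 gave promoter windows of 300 bp (250 bases before to 50 after the start) for 3 of the 4 members, Zic1, Zic4 and Zic5. The windows of Zic5, a member with 1209 or more counts in every library, and of Zic1, a member near the detection limit, are shown because their CpG content ran against the order of their transcript levels. Both are printed 5′ to 3′ on the gene's strand, with CpG dinucleotides in capitals.
Zic5, chr14:122465609-122465908, minus strand: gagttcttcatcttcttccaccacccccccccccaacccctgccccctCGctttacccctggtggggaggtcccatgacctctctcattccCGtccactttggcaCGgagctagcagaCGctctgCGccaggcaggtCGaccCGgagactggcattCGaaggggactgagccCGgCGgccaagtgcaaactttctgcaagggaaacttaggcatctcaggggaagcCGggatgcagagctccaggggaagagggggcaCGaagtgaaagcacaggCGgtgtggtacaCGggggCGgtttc
Zic1, chr9:91365719-91366018, minus strand: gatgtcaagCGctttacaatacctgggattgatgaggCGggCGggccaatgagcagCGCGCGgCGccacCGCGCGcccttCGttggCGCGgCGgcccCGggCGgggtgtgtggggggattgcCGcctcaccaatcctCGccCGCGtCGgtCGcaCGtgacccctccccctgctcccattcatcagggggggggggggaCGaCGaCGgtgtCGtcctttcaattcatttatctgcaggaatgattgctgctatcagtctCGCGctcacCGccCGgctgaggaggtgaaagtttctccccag
The Zic1 window held 31 CpG, more than 89.4% of 32851 such windows, at an observed to expected ratio of 0.969 and a GC content of 65.3%. The Zic5 window held 15 CpG, more than 65.4% of windows, at a ratio of 0.510 and a GC content of 62.7%. The Zic4 window held 8 CpG at a GC content of 46.0%, close to the median of 7 CpG over all windows. Zic4 also had the lowest transcript level of the 3, so its window did not run against that order. This window, at chr9:91368722-91369021, lies inside the annotated Zic4 span given above and not at the start of that span. The letters CTTTGAT (a core of TCF/LEF sites, the DNA-binding partners of β-catenin), CCTGCTG (a core of ZIC sites) and TATAAA were searched on both strands. None of them occurred in the 3 windows, while they occurred in 3.73%, 10.5% and 13.6% of all windows. CCAAT, present in 37.4% of windows, occurred 2 times in that of Zic1 and in neither of the others.

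Zic2 and Zic5 were transcribed at high and intermediate levels in all 3 states, while Zic1 and Zic4 were at or near the detection limit. Per kilobase of exon, Zic2 stood at 56.5 ± 1.83 CPM per kb in EpiLC, 70.0 ± 2.58 in aEpiLC and 58.3 ± 8.73 in pEpiLC (mean ± SD, n = 3). Those levels were above 94.6%, 96.2% and 95.3% of the 15495 genes that passed a low-count filter and had an exon length. Zic5 followed at 23.1 ± 1.19 CPM per kb in EpiLC, 25.3 ± 1.14 in aEpiLC and 13.8 ± 1.85 in pEpiLC, above 85.8%, 87.5% and 77.5% of those genes. Zic2 was thus the most abundant of the 4 per kilobase in every library, and Zic5 the next.

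**Figure D1:**
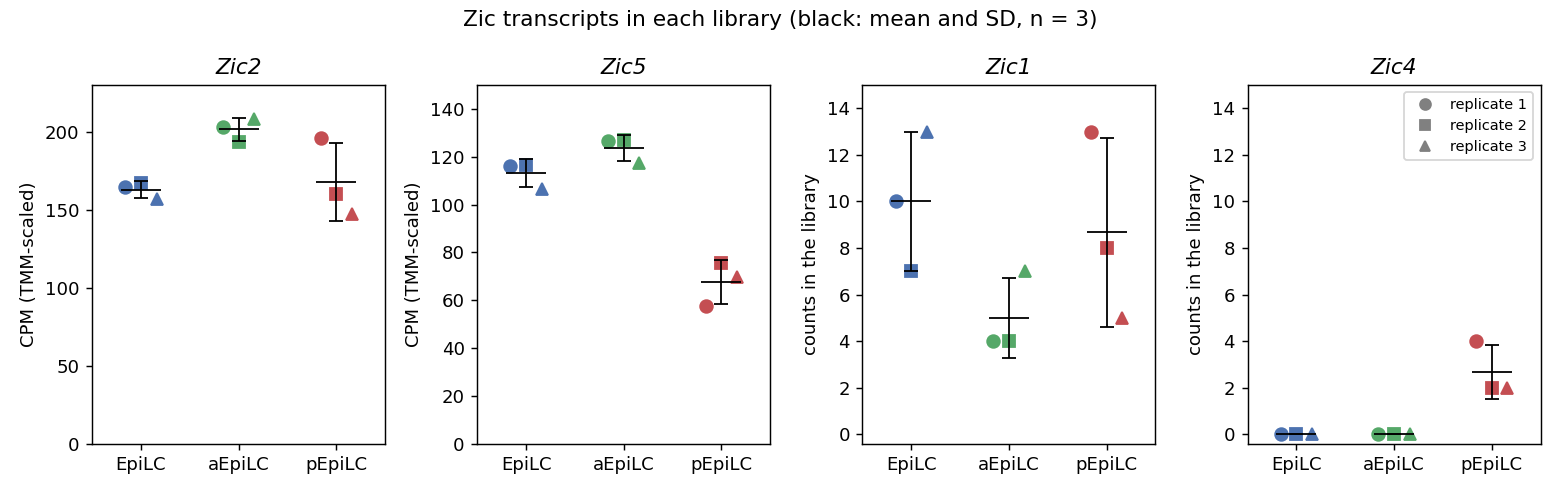
Level of each Zic gene in every library, as TMM-scaled CPM for Zic2 and Zic5 and as counts for Zic1 and Zic4, by state on the x axis. Symbols mark replicates and black marks the mean and SD (n = 3). Zic5 sits at 57.7 to 75.4 CPM in pEpiLC and at 106 to 127 CPM in the other states, while the Zic2 libraries of pEpiLC spread from 147 to 196 CPM.

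Zic2 rose modestly from EpiLC to aEpiLC. Its level was 164, 167 and 157 CPM in EpiLC replicates 1, 2 and 3 and 203, 193 and 208 CPM in aEpiLC. The highest EpiLC library lay below the lowest aEpiLC library. The libraries of these states did not overlap, in one direction or the other, for 56.3% of the 15301 genes tested. The log2 fold change was 0.31 (SE 0.0578, 95% interval 0.19 to 0.43), a 1.24-fold difference, with an adjusted p of 0.000679 in edgeR's quasi-likelihood test. Of all genes tested, 46.6% passed this test in either direction, so a difference of this kind was common among genes. For a call, the log2 fold change also had to be 1 or more in size, which 12.5% of genes reached. Of the 4 Zic members 2 could be tested, and 0 were called.

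In pEpiLC, Zic2 was not distinguishable from EpiLC. The pEpiLC libraries held 196, 160 and 147 CPM, a range that spans the 3 EpiLC libraries, and the highest was replicate 1, the library with the most streak transcripts. Against EpiLC the log2 fold change was 0.07 (SE 0.102, 95% interval -0.17 to 0.30, adjusted p = 0.627 by edgeR). Without replicate 1 it was -0.06 (adjusted p = 0.441). Against aEpiLC it was -0.26 (SE 0.106, 95% interval -0.51 to -0.02), which did not pass the adjustment over all genes (adjusted p = 0.139 by edgeR), and the libraries of the states overlapped. This result turned on 1 library. Without pEpiLC replicate 1, Zic2 was lower in pEpiLC than in aEpiLC by a log2 fold change of -0.38 (SE 0.0694, adjusted p = 0.00210 by edgeR). With all 9 libraries, the mean level of Zic2 was highest in aEpiLC, then pEpiLC, then EpiLC, and of these pairs aEpiLC and EpiLC passed the test. Without pEpiLC replicate 1, pEpiLC came last and its difference from aEpiLC passed as well.

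Zic5 fell in pEpiLC against both other states. Its level was 116, 117 and 106 CPM in EpiLC, 127, 127 and 117 CPM in aEpiLC and 57.7, 75.4 and 69.5 CPM in pEpiLC replicates 1, 2 and 3. Every pEpiLC library lay below every other library, the closest pair being 75.4 and 106 CPM. Against EpiLC the log2 fold change was -0.72 (SE 0.0998, 95% interval -0.95 to -0.49, adjusted p = 0.00140 by edgeR), a level 0.607 times that of EpiLC. Between these states 44.2% of 15288 genes passed the test, 15.8% were called and 58.7% had libraries that did not overlap. Against aEpiLC the log2 fold change was -0.87 (SE 0.102, 95% interval -1.11 to -0.64, adjusted p = 0.00193 by edgeR), a level 0.547 times that of aEpiLC. Here fewer genes moved, since 15.6% of 15198 genes passed the test, 7.29% were called and 38.7% had libraries that did not overlap. No Zic member was called in either comparison, because the fall of Zic5 stayed under the fold limit. pEpiLC replicate 1 held the least Zic5, and without it the log2 fold changes were -0.61 against EpiLC (adjusted p = 2.99e-06 by edgeR) and -0.76 against aEpiLC (adjusted p = 1.98e-05). In bulk RNA, fewer cells that transcribe Zic5 and less Zic5 RNA per cell cannot be told apart.

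From EpiLC to aEpiLC, Zic5 was 0.13 higher on the log2 scale (SE 0.0630, 95% interval -0.01 to 0.27). The libraries of these states did not overlap, but the difference did not pass the test (adjusted p = 0.106 by edgeR). Without aEpiLC replicate 3, the lowest of the aEpiLC libraries, it was 0.17 with an adjusted p of 0.0437. By mean level Zic5 stood highest in aEpiLC, then EpiLC, then pEpiLC, and the first and second of these were not separated by the test.

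**Figure D2:**
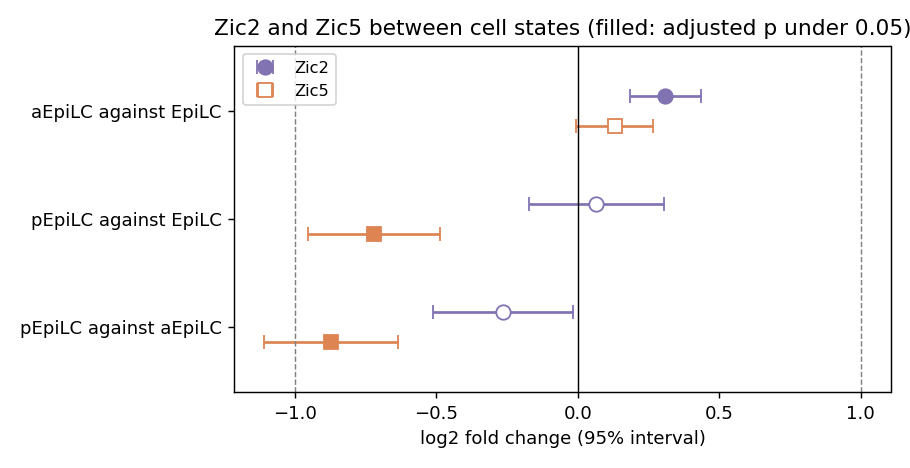
Log2 fold change (x axis) of Zic2 and Zic5 in each comparison of states, with 95% intervals from edgeR. Filled symbols have an adjusted p under 0.05 and dashed lines mark the fold limit of a call. Zic5 is at -0.72 and -0.87 in the comparisons with pEpiLC, where Zic2 is at 0.07 and -0.26.

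The relative abundance of the neighbours Zic5 and Zic2 was compared between states. The count of Zic5 divided by that of Zic2 is free of library scaling. It was 0.707, 0.698 and 0.678 in EpiLC, 0.624, 0.656 and 0.563 in aEpiLC and 0.294, 0.471 and 0.472 in pEpiLC. The 3 states occupied separate ranges, with EpiLC highest and pEpiLC lowest. The mean log2 ratio differed by -0.18 between aEpiLC and EpiLC, by -0.78 between pEpiLC and EpiLC and by -0.61 between pEpiLC and aEpiLC. Each of these had a two-sided exact permutation p of 0.1, the smallest that 3 against 3 libraries allow, and 0.12 after adjustment over the 6 ratio comparisons of both gene pairs, so none could reach the threshold. pEpiLC replicates 2 and 3 were close to each other, and replicate 1 had a lower ratio through both a lower Zic5 and a higher Zic2 count. Without replicate 1 the mean log2 ratio of pEpiLC was -1.08 in place of -1.31, still below the -0.71 of aEpiLC.

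**Figure D3:**
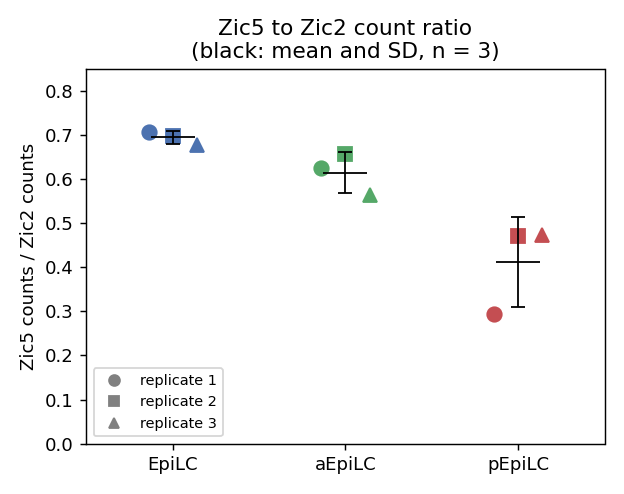
Zic5 counts divided by Zic2 counts in each library (y axis) by state (x axis), with the mean and SD in black (n = 3). The ratio lies at 0.678 to 0.707 in EpiLC, 0.563 to 0.656 in aEpiLC and 0.294 to 0.472 in pEpiLC, with pEpiLC replicate 1 the lowest.

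Zic1 and Zic4, the members on chromosome 9, were barely detected. Zic1 had 10, 7 and 13 counts in EpiLC, 4, 4 and 7 in aEpiLC and 13, 8 and 5 in pEpiLC, or 0.456 ± 0.121, 0.230 ± 0.0798 and 0.399 ± 0.200 CPM (mean ± SD, n = 3). The mean was lowest in aEpiLC, whose libraries overlapped those of pEpiLC, and the lowest EpiLC library equalled the highest aEpiLC library at 7 counts. Neither gene passed the low-count filter. Fitted without the filter, Zic1 had adjusted p-values of 0.232 for aEpiLC against EpiLC, 0.835 for pEpiLC against EpiLC and 0.483 for pEpiLC against aEpiLC (edgeR). Differences in Zic1 were not detectable at this depth.

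Zic4 had 0 counts in all 3 EpiLC and all 3 aEpiLC libraries and 4, 2 and 2 counts in pEpiLC. A count of 0 in a library allows up to 3 counts there, and 2 of the 3 pEpiLC counts lay within that limit. The libraries did not overlap, but the limit takes each library alone and cannot decide on a difference between states. Without the filter, Zic4 had an adjusted p of 0.0652 for pEpiLC against EpiLC and of 0.129 for pEpiLC against aEpiLC (edgeR). The unadjusted p-values of the same fits were 0.0200 and 0.0205. Neither comparison passed, so no difference was established at this depth. Among 6 neural crest and cerebellar progenitor genes, cells in which Zic1 and Zic4 are known to act, En1 stayed at or under 3 counts in every library. The summed level of the 6 was 39.1 to 51.3 CPM in EpiLC and aEpiLC and 2.15 to 11.0 CPM in pEpiLC, and Foxd3, also an epiblast gene, took 32.9 to 47.3 CPM of the former.

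A transcript between Zic5 and Zic2 was compared with them. 2610035F20Rik, annotated as a processed transcript at chr14:122470284-122475199 on the minus strand, starts 236 bp from the start of Zic2 and runs towards Zic5. It held 2.94, 3.39 and 3.16 CPM in EpiLC, 4.22, 5.26 and 4.05 CPM in aEpiLC and 1.53, 2.74 and 1.79 CPM in pEpiLC. The 3 states did not overlap. Its log2 fold change was 0.51 in aEpiLC against EpiLC (adjusted p = 0.0339), -0.62 in pEpiLC against EpiLC (adjusted p = 0.0880) and -1.16 in pEpiLC against aEpiLC (adjusted p = 0.0263, all by edgeR), and the last was a call. Without pEpiLC replicate 1 the last was -0.98 (adjusted p = 0.0136), just under the fold limit. Its order of states by mean level, aEpiLC, EpiLC and pEpiLC, was that of Zic5, and without pEpiLC replicate 1 also that of Zic2. Across the 9 libraries its Pearson correlation with Zic5 was 0.92 and with Zic2 0.42 (log2 CPM), and without pEpiLC replicate 1 these were 0.86 and 0.85.

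**Figure D4:**
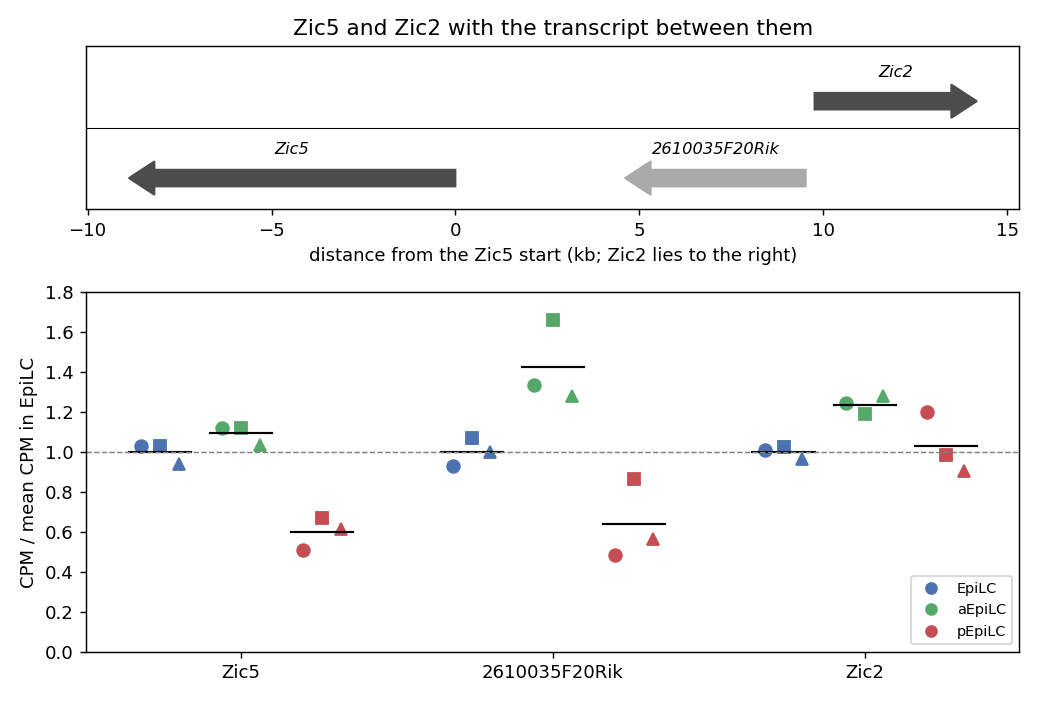
Top, Zic5, 2610035F20Rik and Zic2 as arrows in the direction of transcription, by distance in kb from the start of Zic5. Bottom, CPM of each in every library divided by its mean in EpiLC (y axis), with circles, squares and triangles for replicates 1, 2 and 3 and lines for means (n = 3). The pEpiLC points of Zic5 and of 2610035F20Rik lie below 1, and those of Zic2 lie on both sides of it.

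No other gene directly beside Zic5 and Zic2 passed the test. Gm5089, 5.68 kb beyond the end of Zic5, had 1.19, 1.71 and 0.784 CPM on average in EpiLC, aEpiLC and pEpiLC, with adjusted p-values of 0.276, 0.260 and 0.198 in aEpiLC against EpiLC, pEpiLC against EpiLC and pEpiLC against aEpiLC (edgeR). Its symbol belongs to more than one annotated gene, so its count is uncertain. Gm10837, 10.7 kb beyond Zic2, had at most 3 counts in any library and was not tested. The nearest coding gene on that side that passed the filter was Pcca, a subunit of propionyl-CoA carboxylase, 54.5 kb away, named although it is not the adjacent gene. Pcca was higher than in EpiLC both in aEpiLC (log2 fold change 0.57, adjusted p = 0.000101) and in pEpiLC (0.64, adjusted p = 0.00120, both by edgeR), a pattern that neither Zic gene showed. Apart from each other, the annotated genes directly beside or within Zic1 and Zic4 were A730094K22Rik, Gm37477 and Gm29478. None of these names was in the count table, so they could not be compared. Gm37477 lies on the strand opposite to Zic4 and overlaps its exons by 468 bp. The nearest coding genes there that passed the filter, likewise not adjacent, were Tbc1d2b, 1087 kb from Zic1, and Plscr1, 884 kb from it on the other side. Tbc1d2b was higher than in EpiLC in aEpiLC (log2 fold change 0.63, adjusted p = 0.00150) and in pEpiLC (1.00, adjusted p = 0.00694), and so was Plscr1 (0.74, adjusted p = 6.48e-05, and 0.67, adjusted p = 0.00343, all by edgeR).

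The GLI and GLIS factors, the closest relatives of the Zic proteins by their zinc fingers, all passed the filter. Of 6, 2 were higher and 2 lower in aEpiLC than in EpiLC by adjusted p, and 4 were higher and 2 lower in pEpiLC. None of the 6 passed between pEpiLC and aEpiLC, the comparison in which Zic5 differed most. Gli1, a target and effector of Hedgehog signalling, fell from 16.7 CPM in EpiLC to 4.60 in aEpiLC (log2 fold change -1.85, adjusted p = 1.51e-06) and 6.43 in pEpiLC (-1.35, adjusted p = 0.00117). Glis3 rose from 0.475 CPM to 1.50 (1.65, adjusted p = 0.00353) and 3.01 (2.67, adjusted p = 0.0136), and Glis1 rose from 0.925 to 2.58 CPM in pEpiLC (1.50, adjusted p = 0.0223, all by edgeR). The list's median log2 fold change was 0.19 in aEpiLC against EpiLC, 0.55 in pEpiLC against EpiLC and 0.53 in pEpiLC against aEpiLC, beside 0.0023, 0.0167 and 0.0119 over all genes tested. Of all genes, 46.6%, 44.2% and 15.6% passed in these comparisons. The calls in pEpiLC were kept without pEpiLC replicate 1.

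Of 12 Hedgehog ligands, receptors and regulators, 10, 9 and 10 were tested in aEpiLC against EpiLC, pEpiLC against EpiLC and pEpiLC against aEpiLC. By adjusted p, 3 were higher and 4 lower in aEpiLC, 4 higher and 3 lower in pEpiLC, and none passed between pEpiLC and aEpiLC, where 46.6%, 44.2% and 15.6% of all genes passed. In aEpiLC 1 was called higher and 1 lower against EpiLC, and the same numbers were called in pEpiLC, beside 12.5% and 15.8% of all genes, so few list members were called and their share was near that of all genes. Hhip, a Hedgehog-binding inhibitor that is itself a pathway target, fell from 4.81 CPM to 1.07 in aEpiLC (log2 fold change -2.16, adjusted p = 2.97e-05) and 0.464 in pEpiLC (-3.32, adjusted p = 0.00137). The ligand Dhh rose in aEpiLC, from 0.229 to 0.705 CPM (1.60, adjusted p = 0.00785). Gas1, a co-receptor, rose in pEpiLC from 5.70 to 45.9 CPM (3.03, adjusted p = 0.0348, all by edgeR), a call that was lost without pEpiLC replicate 1. The medians of the list were 0.02, 0.51 and 0.08 in aEpiLC against EpiLC, pEpiLC against EpiLC and pEpiLC against aEpiLC.

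Several neural plate and border genes, among which Zic genes act in the embryo, were lower in pEpiLC, as Zic5 was. Of 20 on the list, 18 were in the table and 11 tested. In aEpiLC against EpiLC, 4 were higher and 0 lower by adjusted p, and Pax6, a neuroectoderm regulator (log2 fold change 1.81, adjusted p = 0.000279), and Irx3, a neural patterning factor (2.04, adjusted p = 0.000819), were called. In pEpiLC against EpiLC, 7 were lower and 1 higher, and against aEpiLC 5 were lower and 0 higher, with medians of -0.42 and -1.46. The median in aEpiLC against EpiLC was 0.13. Of all genes, 46.6% passed in aEpiLC against EpiLC, 44.2% in pEpiLC against EpiLC and 15.6% in pEpiLC against aEpiLC, and 12.5%, 15.8% and 7.29% were called, in either direction. The Sox factors of neural progenitors were called lower in pEpiLC than in EpiLC, with log2 fold changes of -1.34 for Sox2 (adjusted p = 0.0133), -1.78 for Sox3 (0.00498) and -2.92 for Sox1 (0.00939). Pax6 (-2.54, adjusted p = 0.00495) and Foxd3 (-3.08, adjusted p = 0.0153) were lower as well, and Msx1, a factor of the neural border and of mesoderm, was higher (2.88, adjusted p = 0.0413, all by edgeR). Against aEpiLC the calls were Sox2 (-2.11), Sox3 (-1.93), Pax6 (-4.36), Foxd3 (-3.25) and Otx2 (-1.04). In pEpiLC, Sox1 held 0.151 CPM, near the detection limit, and Pax6 held 0.0906 CPM, below it. The fold changes of Sox1 and Pax6 in pEpiLC are therefore uncertain in size. Without pEpiLC replicate 1, 6 genes were called lower in each comparison. All 5 of the lower calls against EpiLC remained and Irx3 was added. Of those against aEpiLC 4 remained, Otx2 was lost, and Irx3 and Sox1 were added. Otx2 held 76.2 and 68.6 CPM in pEpiLC replicates 2 and 3, still below the 141 to 149 CPM of the aEpiLC libraries. Without that replicate, Msx1 was no longer called higher against EpiLC, but was called higher against aEpiLC. On the separate list of neural markers, in all 9 libraries, 4 of the 6 tested were lower in pEpiLC than in EpiLC by adjusted p and 2 were higher.

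Genes of the formative and primed epiblast, the state that EpiLCs model, included many that were lower in pEpiLC. All 13 on the list were tested. In aEpiLC against EpiLC, 3 were higher and 4 lower by adjusted p and none was called, with a median log2 fold change of -0.01. In pEpiLC, 8 were lower and 1 higher against EpiLC and 8 lower and 1 higher against aEpiLC, with medians of -0.97 and -0.86. The shares of all genes passing were again 46.6%, 44.2% and 15.6% in aEpiLC against EpiLC, pEpiLC against EpiLC and pEpiLC against aEpiLC, and 15.8% and 7.29% were called in the comparisons with pEpiLC. Called lower against EpiLC were the transcription factors Pou3f1 (-2.64), Foxd3 (-3.08) and Sall2 (-1.18), the chromatin factor Utf1 (-2.60) and the DNA methyltransferases Dnmt3a (-1.56) and Dnmt3b (-1.09), with adjusted p-values from 0.00132 for Dnmt3a to 0.0153 for Foxd3 (edgeR). The growth factor Fgf5 was called higher (1.00, adjusted p = 0.000151 by edgeR). Against aEpiLC they were Pou3f1 (-2.65), Foxd3, Sall2 (-1.63), Utf1 (-2.06), Dnmt3b (-1.02) and Otx2. Without pEpiLC replicate 1, 4 of the 6 remained in each comparison. Sall2 and Dnmt3b against EpiLC, and Otx2 and Dnmt3b against aEpiLC, were no longer called. Sall2 held 89.2 and 91.7 CPM in pEpiLC replicates 2 and 3, still below the 170 to 187 CPM of the EpiLC libraries. Otx2 likewise stayed lower, as given above. The comparisons with pEpiLC share its libraries, and those with EpiLC share the EpiLC libraries, so the lists and Zic5 moved within the same samples. The part that the primitive streak transcripts of these libraries had in the level of Zic5 was not tested.

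The genes whose patterns were most like those of Zic2 and Zic5 were sought by Pearson correlation of log2 CPM over the 9 libraries, among 10726 genes of at least 5 CPM on average. The libraries form 3 states, so for Zic5 such values mostly describe differences between states. For Zic2 they also follow the spread within pEpiLC, whose libraries ran from 147 to 196 CPM. For Zic5 the highest were Faah, which encodes a fatty acid amide hydrolase (r = 0.991), Hs6st1, a heparan sulfate sulfotransferase (0.989), Ston2, an endocytic adaptor (0.989), Map6, a microtubule-associated protein (0.989), and Rin1, a RAS effector (0.988). Their log2 fold changes in pEpiLC against EpiLC, from -1.08 for Ston2 to -2.15 for Map6, were larger in size than that of Zic5. The lowest were Pllp (-0.988), Tpd52l1 (-0.988) and Mixl1 (-0.987), a homeobox gene of the primitive streak. Among the epiblast and neural genes, Pou3f1 and Sox2 each had r = 0.96 with Zic5 and T, the primitive streak regulator, had -0.94. Without pEpiLC replicate 1 these were 0.95, 0.93 and -0.90.

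**Figure D5:**
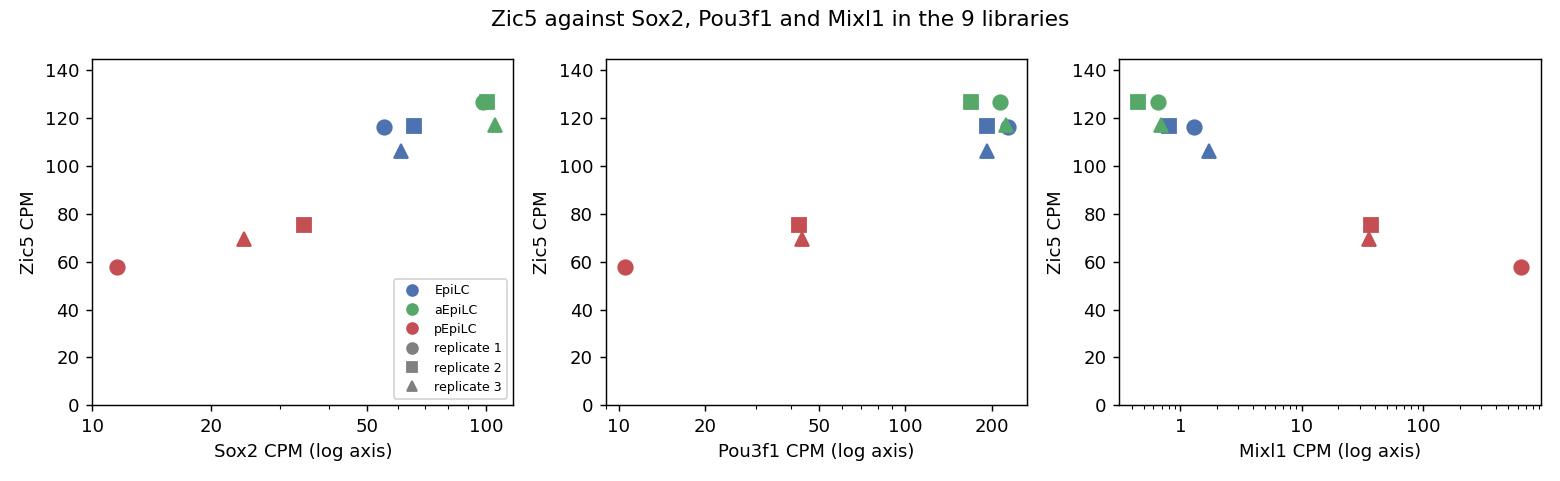
Zic5 CPM (y axis) against Sox2, Pou3f1 and Mixl1 CPM (x axes, log scale) in the 9 libraries, with colours for states and symbols for replicates. The 3 pEpiLC libraries are lowest for Zic5, Sox2 and Pou3f1 and highest for Mixl1, and replicate 1, with 644 CPM of Mixl1 against 37.3 and 35.9 CPM in replicates 2 and 3, is the extreme in each panel.

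For Zic2 the highest were Gabarapl1, an autophagy protein (r = 0.951), Ctdsp2 (0.948), Vash2 (0.948), Pitpnm1 (0.936) and the cytoskeletal crosslinker Actn1 (0.935), and the lowest were Orc1, a subunit of the origin recognition complex (-0.962), Hivep2 (-0.958) and Pdhb, of pyruvate dehydrogenase (-0.953). No gene was shared with the Zic5 sets. Zic2 had r = 0.33 with Sox2 and 0.11 with Pou3f1 over 9 libraries, and 0.89 and 0.60 without pEpiLC replicate 1. Zic2 and Zic5 had r = 0.30 with each other over 9 libraries and 0.72 over the 8 without pEpiLC replicate 1, so the low values of Zic2 with Zic5, Sox2 and Pou3f1 rested on that library. Searched without it, 0 of the 5 highest and 0 of the 3 lowest genes of Zic2 remained. For Zic5, 1 of the 5 highest (Faah) and 1 of the 3 lowest (Mixl1) did. Most of the names given thus changed when this library was left out. No other library was left out of the search, so whether the names depend on this library in particular was not tested.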

How the data were processed

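Total RNA of 9 mouse libraries was sequenced by the authors, who, per the labels' processing notes, aligned and counted with STAR 2.7.9a, RSEM 1.3.1 and GRCm38. The authors deposited RSEM's expected counts by gene symbol, not normalized. The annotation and strand setting are not given in the sources used here. Counts were rounded to whole numbers. Each comparison was fitted on its own 6 libraries over all genes with edgeR 4.0.16 in R 4.3.3 (TMM, filterByExpr, glmQLFit and glmQLFTest, Benjamini-Hochberg adjustment), and a call needed an adjusted p under 0.05 and a log2 fold change of 1 or more in size. Standard errors were taken as fold change over the root of F. CPM used TMM factors of the 9 libraries. Levels per kilobase and positions used GENCODE vM21, in which 22803 symbols (97.2%) matched 1 gene, and promoters came from RefSeq. Count ratios used an offset of 0.5 counts on the log2 scale and two-sided exact permutation tests. The fit was tested on simulated data.

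Genes named are the members, genes called from 4 related lists, genes beside the members, and the 5 highest and 3 lowest correlations. Members, lists and markers were chosen with earlier results of these data known. One further gene of the related lists is not reported here. Alternatives were RLE factors, DESeq2 1.42.0, a likelihood ratio test, no filter or a stricter one, all 9 libraries in 1 fit, a replicate block, a call without fold limit and leaving out each library. Lists, correlations, closest genes and 2610035F20Rik without pEpiLC replicate 1 were added after seeing the data. Intervals at the detection limit cover counting error only.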

Additional observations from a re-analysis of the deposited data

How the results depend on the processing

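Zic2 in aEpiLC against EpiLC and Zic5 in pEpiLC against EpiLC and against aEpiLC passed the test in each of the 13 alternatives run, with log2 fold changes of 0.28 to 0.34, -0.81 to -0.61 and -0.95 to -0.76. Neither Zic2 nor Zic5 reached the fold limit in any of these, and no member was called. Zic2 in pEpiLC against EpiLC passed in none (-0.06 to 0.16). In leave-one-out fits Zic5 in aEpiLC against EpiLC ranged from 0.086 to 0.17, passing without aEpiLC replicate 3, and Zic2 in pEpiLC against aEpiLC from -0.38 to -0.18, passing without pEpiLC replicate 1. By adjusted p alone, 1 member was called in each comparison. The numbers of genes called higher and lower were then 3676 and 3454 in aEpiLC against EpiLC (1109 and 802 with the fold limit), 3481 and 3278 in pEpiLC against EpiLC (1178 and 1243), and 955 and 1414 in pEpiLC against aEpiLC (387 and 721). With at least 10 counts in every library, 771 and 817 genes were called higher and 488 and 801 lower in aEpiLC and pEpiLC against EpiLC. Genes with few counts in any library compared were then not tested. Leaving out a library gave 180 to 419 genes called higher and 334 to 759 called lower in pEpiLC against aEpiLC, and leaving out any aEpiLC library lowered the counts, to 252 and 396, 180 and 334, and 201 and 382 for replicates 1, 2 and 3. The cause was not tested. Deviations of libraries with the same replicate number correlated at -0.060 to 0.172. Libraries with different numbers were not compared in this way, so whether the numbers pair libraries could not be decided. With a replicate block, Zic5 in pEpiLC against aEpiLC was at -0.88 (adjusted p = 0.00438 by edgeR), 394 and 729 genes were called in that comparison, and no call of a Zic member changed. The mean log2 ratio of Zic5 to Zic2 moved by less than 1 SD in all alternatives. That of Zic4 to Zic1 moved with an offset of 2 counts, to -2.55, -1.78 and -1.15 in EpiLC, aEpiLC and pEpiLC from -4.35, -3.42 and -1.50, as counts near 0 make it depend on the offset. Ranked by Spearman's rho, 0 of the 5 genes closest to Zic2 and 0 of those closest to Zic5 stayed among the 5 closest, so these names depend on the measure. Among genes of at least 1 CPM, 3 and 4 stayed.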
